A study of Mus musculus with 6 samples.

Results

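Rab GTPases, the small GTP-binding proteins that direct membrane vesicles, were followed in the RNA of regulatory T (Treg) cells with and without miR-142. The family was taken as every row of the deposited count matrix whose symbol consists of Rab, a number and at most 1 letter with a further digit, which gave 59 of 24421 genes. Rab-like (Rabl) genes and genes for proteins that bind Rabs fall outside this rule. Treg cells were sorted as CD4+YFP+ splenocytes of female C57BL/6 mice aged 8 to 11 weeks, untreated before RNA extraction. The WT group was Foxp3Cre and the KO group Foxp3Cre miR-142fl/fl, with 3 mice and 1 library per mouse in each. Both groups therefore carried the Foxp3Cre allele, which makes a Cre and yellow fluorescent protein fusion from the endogenous Foxp3 promoter, so that Cre acts in cells that express Foxp3. The deleted gene gives rise to both the 3p and the 5p strand of the miRNA.

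The libraries held between 13883069 and 24042994 counts. A count of 3, taken as the floor of detection, corresponded to between 0.123 and 0.227 CPM (counts scaled to the normalised library size, the usual CPM unit), and such floors cover counting error only. Of the 59 Rab genes, 42 passed the filter of more than 1 CPM in at least 3 libraries, 17 did not, and 1 of these 17, Rab3c, had 0 counts in all 6 libraries. Mir142b, annotated on the strand opposite to the deleted Mir142, averaged 6.33 ± 2.50 CPM (SD, n = 3) in WT and 0.370 ± 0.0244 CPM in KO libraries, which is -4.07 as a log2 fold change (SE 0.40, FDR = 0.00132). The summed level of 8 Treg markers lay between 5460 and 6106 CPM in WT and was 7318, 8124 and 8281 CPM in KO replicates 1, 2 and 3. Its members differed in direction. Il2ra went from 726 to 799 CPM in WT to 2258, 2404 and 3073 CPM in KO replicates. All KO libraries were below all WT libraries for Cd4 (833 to 926 against 1005 to 1043 CPM) and Cd3e (590 to 594 against 626 to 733 CPM). KO replicate 1 stood apart in markers of other cells, with 2856 CPM summed over 12 monocyte and macrophage genes against 9.55 to 13.7 CPM in WT replicates and 79.0 and 20.5 CPM in KO replicates 2 and 3. In a bulk library, fewer cells of a type and less RNA per cell cannot be told apart.

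A Rab protein switches between a GTP-bound form on a membrane, where it recruits effectors such as motors, tethers and coat adaptors, and a GDP-bound form that an escort protein can lift off the membrane. Guanine nucleotide exchange factors turn a Rab on, GTPase-activating proteins turn it off, and a lipid anchor added by geranylgeranyl transferase holds it in the membrane. Different Rabs mark different compartments, so that Rab1 and Rab2 are known for traffic between the endoplasmic reticulum (ER) and the Golgi, Rab5 for early endosomes, Rab4 and Rab11 for recycling to the surface, Rab7 for late endosomes and Rab27 for secretory granules. In T cells such routes bring the T cell receptor and other surface receptors back to the membrane and move lytic granules.

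A miRNA pairs with a target RNA mainly through its seed, bases 2 to 8 counted from the 5′ end. The mature strands of the deleted miRNA are shown because the matches to them in Rab transcripts are described further on. Both come from RefSeq (GRCm38.p6, plus strand, 3p at chr11:87756903-87756925 and 5p at chr11:87756867-87756887), with the seed in capitals.
miR-142a-3p: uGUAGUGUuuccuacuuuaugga
miR-142a-5p: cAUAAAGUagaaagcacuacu
The DNA letters that pair with the seed are ACACTAC for miR-142a-3p and ACTTTAT for miR-142a-5p. The stretches below are from the last exon of the 3 Rab genes that rose in KO Treg cells and hold ACACTAC, and of Rab1, which rose and holds ACTTTAT, each read 5′ to 3′ on the gene's strand in the longest annotated 3′ UTR (GENCODE vM21, GRCm38), with the match in capitals.
Rab2a, first match: ctgaattgtattaaACACTACa
Rab2a, second match: aaacagaaactccaACACTACa
Rab12: tgtccttgttaattACACTACa
Rab14: attgtgcgtttttaACACTACa
Rab1, match to 5p: acttccaggtgtcaACTTTATt
The matches lie at chr4:8606787-8606793 and chr4:8607325-8607331 on the plus strand (Rab2a, exon 8 of 8), chr17:66495373-66495379 on the minus strand (Rab12, exon 6 of 6), chr2:35181065-35181071 on the minus strand (Rab14, exon 8 of 8) and chr11:20226269-20226275 on the plus strand (Rab1, exon 6 of 6). In all 4 of the ACACTAC matches printed, the next base on the 3′ side is an A.

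The question asked of the family was which Rab transcripts differ between miR-142-deficient and miR-142-sufficient Treg cells. The authors report a fatal systemic autoimmune disorder in KO mice and name inflammation as a conceivable source of expression changes in their Treg cells. The design cannot tell genotype and disease apart, and the part of each in the differences below was not tested. Transcripts of 8 Rab genes rose in KO Treg cells and none passed the threshold for a fall. The 8 were Rab2a and Rab1 of ER to Golgi traffic, Rab5c and Rab20 of early endosomes, Rab12, Rab14 and Rab11a of recycling and surface delivery, and Rab27a of regulated exocytosis. The rises of Rab2a, Rab1 and Rab12 were close to a doubling, while those of Rab5c, Rab27a, Rab11a and Rab14 lay between 1.25- and 1.45-fold, and Rab20, at a low level, was 3.18-fold higher. The test was the quasi-likelihood F test of edgeR (QLF), fitted across all genes, and a gene was called at a Benjamini-Hochberg adjusted p (FDR) under 0.05. For pathway analysis the authors asked for this FDR in the QLF, likelihood ratio and exact tests of edgeR alike. By that rule 7 Rab genes were called, all higher, beside 1246 higher and 750 lower over all tested genes. Rab5c missed it (largest FDR of the 3 tests 0.0517).

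The 8 called genes were 19.0% of the 42 tested Rab genes, and in the whole transcriptome 18.8% of the 11658 tested genes were called. The share of calls in the family was thus close to the background. By direction, over all genes tested 11.6% were called higher and 7.27% lower, against 19.0% higher and 0 of 42 lower among Rab genes. At an unadjusted p under 0.05, the QLF test had 15 Rab genes higher and 2 lower, beside 2299 and 1761 of all 11658 tested genes. DESeq2 at an FDR under 0.05 called 10 Rab genes higher and 1 lower, beside 1665 and 1198 of all tested genes. The log2 fold change was positive for 31 of 42 Rab genes (73.8%) and for 51.8% of all tested genes, and its median was 0.27 for the Rab genes against 0.02 for all tested genes. All KO libraries were above all WT libraries for 17 Rab genes (40.5%, beside 22.2% of all tested genes). All KO libraries were below all WT libraries for 2, Rab2b and Rab6b (4.76%, beside 18.8% of all tested genes), and the remaining 23 overlapped. With library size alone as the scaling, 4 Rab genes were called higher and 0 lower, the median was 0.19 for Rab genes and -0.06 for all genes, and 1064 genes were higher and 1201 lower over the transcriptome, where the main scaling gave 1350 and 847. Members of a family are not replicates of a condition, and no test of the list was made.

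**Figure D1:**
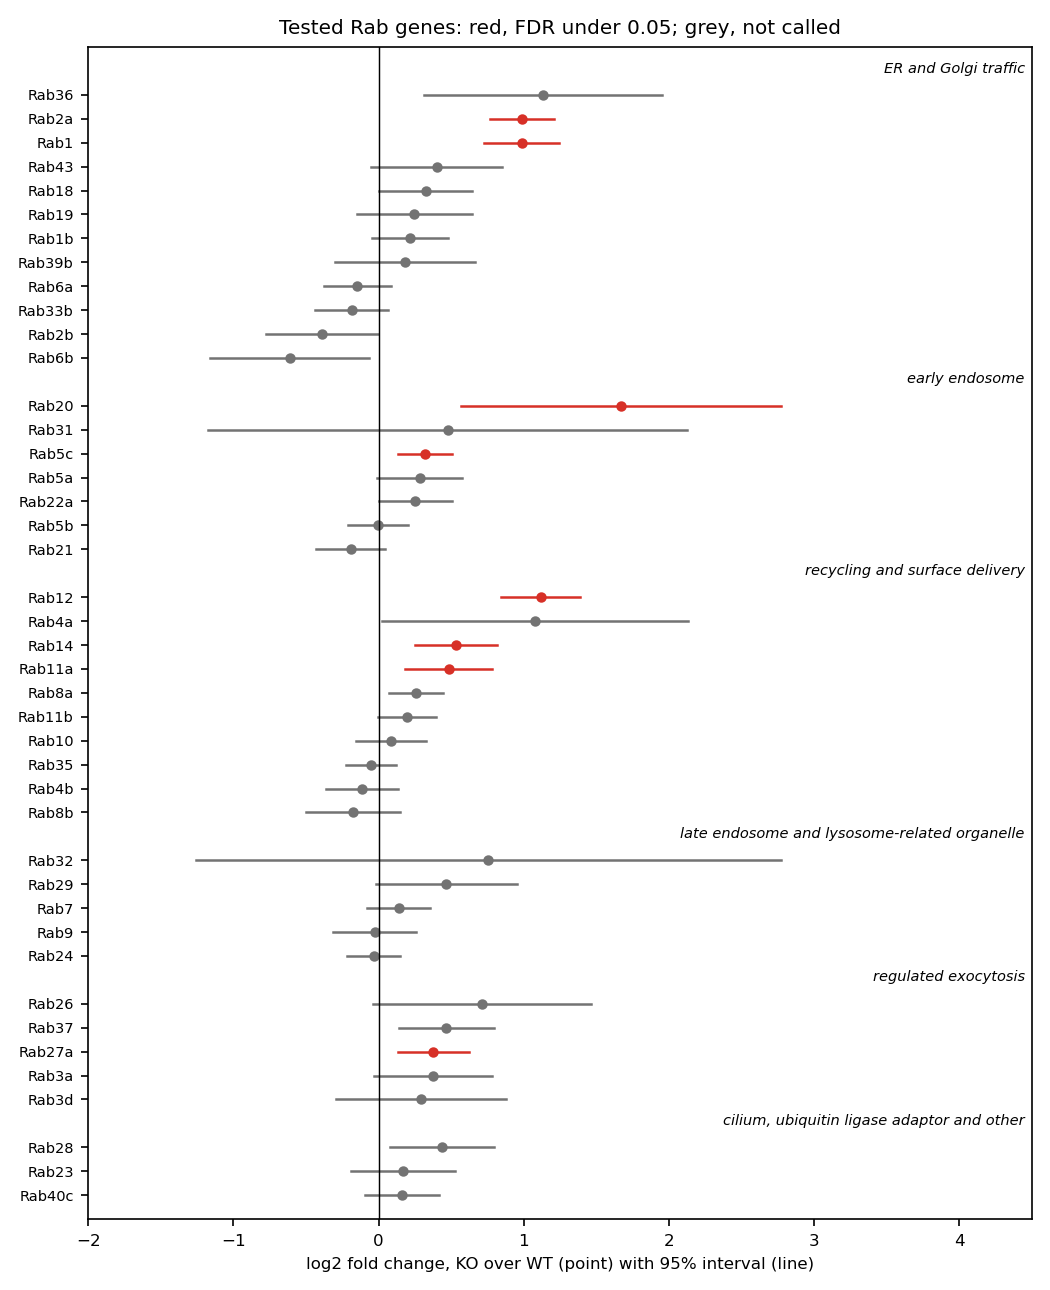
The log2 fold change of KO over WT (x axis) is plotted for the 42 tested Rab genes (y axis, grouped by role), with points for the estimate and lines for the 95% interval of the QLF fit, red where FDR is under 0.05. The 8 red points all lie to the right of 0, 31 of 42 points are positive, and the widest intervals belong to Rab32, Rab31, Rab20 and Rab4a.

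Summed over all Rab genes, the level was 2951, 2974 and 2886 CPM in WT replicates 1, 2 and 3, and 3644, 3427 and 3320 CPM in KO replicates 1, 2 and 3. The sums did not overlap, with means of 2937 ± 45.3 CPM in WT and 3464 ± 165 CPM in KO. The 8 called genes alone went from 692 ± 27.1 to 1047 ± 52.6 CPM, and since they were chosen for being higher, these sums are a description. KO replicate 1 was the highest of the 6 libraries for 19 of the 42 tested Rab genes (45.2%), beside 23.4% of all tested genes, and for 4 of the 8 called ones. The count of Rab genes called higher was 3 without WT replicate 1 (Rab2a, Rab12 and Rab1) and 4 without WT replicate 2, WT replicate 3 or KO replicate 3. Without WT replicate 2 the fourth gene was Rab18 (FDR = 0.0481) and without WT replicate 3 it was Rab4a, neither of them called with all libraries. Over all genes tested in these fits, 666 of 11522 were called higher without WT replicate 1 and 483 of 11551 without WT replicate 2. The same count was 555 of 11540 without WT replicate 3 and 874 of 11472 without KO replicate 3. When KO replicate 1 was left out, 5 Rab genes stayed called higher (11.9%, beside 9.69% of all genes tested in that fit), namely Rab2a, Rab12, Rab1, Rab14 and Rab27a, and 2 were called lower (4.76%, beside 7.59%), namely Rab31 and Rab32.

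Of the 12 tested Rabs of ER and Golgi traffic, 2 rose (16.7%, beside 11.6% of all tested genes) and none fell by the test. The median log2 fold change of the 12 was 0.23. Rab2a, a Rab of the membranes between ER and Golgi (chr4:8535644-8607778), measured 75.2, 73.9 and 67.4 CPM in WT replicates 1, 2 and 3 and 146.6, 152.5 and 130.2 CPM in KO replicates 1, 2 and 3. The log2 fold change was 0.99 (SE 0.09, FDR = 0.0013), and the lowest KO library lay well above the highest WT library. Rab1, the Rab1a of the annotation and a Rab of vesicle transport from the ER to the Golgi (chr11:20201432-20226856), measured 81.7, 89.6 and 83.3 CPM in WT and 193.7, 156.1 and 154.2 CPM in KO replicates. Its log2 fold change was 0.99 (SE 0.11, FDR = 0.0024), KO replicate 1 was the highest, and without it the value was 0.85 (FDR = 0.00101). Both genes passed the threshold in all 16 of the alternative settings tried.

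The remaining Rabs of ER and Golgi traffic were not called. Rab36, a Golgi-associated Rab, showed 1.11, 0.697 and 0.608 CPM in WT and 1.44, 2.27 and 1.57 CPM in KO replicates. All KO libraries were above all WT libraries at this low level, and the log2 fold change was 1.13 (SE 0.35, FDR = 0.0627). In WT only replicate 1 exceeded 1 CPM, so Rab36 passed the filter through its KO libraries. Its place among the Rab genes with KO above WT is therefore not independent of the filter. Rab6b, of retrograde traffic at the Golgi, showed 125.1, 97.5 and 97.6 CPM in WT and 51.1, 61.9 and 96.8 CPM in KO replicates. KO replicate 3 lay just below the lowest WT library and the other two KO libraries far below it. The log2 fold change was -0.61 (SE 0.23, FDR = 0.111). DESeq2 called Rab6b lower (FDR = 0.038), and so did the QLF test without KO replicate 3 (-0.93, FDR = 0.0194). Rab2b, the close relative of Rab2a, showed 22.3, 18.6 and 20.1 CPM in WT and 17.3, 12.3 and 16.8 CPM in KO replicates, also without overlap (-0.39, SE 0.16, FDR = 0.139). Of the exon bases of Rab2b, 64.0% overlap other genes, among them Tox4 on the opposite strand. The reads were counted without strand, so reads of such genes cannot be assigned with certainty.

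Of the 7 tested early endosome Rabs, 2 rose (28.6%, beside 11.6% of all tested genes) and the median log2 fold change was 0.28. Rab5c, one of 3 Rab5 genes that drive the fusion of early endosomes (chr11:100715009-100738215), measured 203.9, 199.96 and 192.4 CPM in WT and 262.8, 238.3 and 243.2 CPM in KO replicates. The rise was small but without overlap (0.32, SE 0.08, FDR = 0.0333), and the gene passed in 5 of 16 alternative settings and in 1 of the 6 that leave out 1 library (0.26, FDR = 0.0885 without KO replicate 1). Rab20, a Rab of endosome and phagosome maturation (chr8:11453518-11478710), measured 1.36, 1.39 and 1.55 CPM in WT and 7.99, 2.20 and 3.42 CPM in KO replicates. It had the largest log2 fold change of the called Rabs (1.67, SE 0.47, FDR = 0.0489), but KO replicate 1 was more than the sum of the other two KO libraries. Without that library the value was 0.96 (FDR = 0.0629). Of the exon bases of Rab20, 25.6% overlap E230013L22Rik on the opposite strand.

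Among the early endosome Rabs that were not called, Rab5a averaged 54.5 ± 2.31 CPM in WT and 66.3 ± 10.8 CPM in KO (FDR = 0.159). Rab22a, which sorts cargo from endosomes, had 42.0 ± 1.09 and 50.03 ± 5.77 CPM (FDR = 0.139). In both, all KO libraries were above all WT libraries. Rab5b was the flattest of the Rab5 genes, with 50.3 ± 2.63 CPM in WT and 50.1 ± 2.45 CPM in KO, and the 95% interval of its log2 fold change ran from -0.21 to 0.20.

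Of the 10 tested Rabs of recycling and surface delivery, 3 rose (30%, beside 11.6% of all tested genes). The median log2 fold change of the 10 was 0.23. Counts this small do not rank the roles. Rab12, which guides transferrin receptor from recycling endosomes to lysosomes (chr17:66494512-66519729), measured 28.8, 30.7 and 28.1 CPM in WT and 62.7, 72.0 and 55.4 CPM in KO replicates. Its log2 fold change was 1.12 (SE 0.12, FDR = 0.0019), and it passed in all 16 alternative settings. Rab14, of traffic between Golgi and endosomes (chr2:35180205-35201120), measured 113.2, 127.1 and 127.5 CPM in WT and 183.9, 199.1 and 149.2 CPM in KO replicates. Its log2 fold change was 0.53 (SE 0.12, FDR = 0.025). It passed in 12 of 16 settings and in 3 of the 6 that leave out 1 library, and KO replicate 3 lay nearest to the WT libraries. Rab11a, the main Rab of recycling endosomes (chr9:64715299-64737758), measured 43.7, 52.3 and 47.4 CPM in WT and 76.9, 57.8 and 65.7 CPM in KO replicates. Its log2 fold change was 0.48 (SE 0.13, FDR = 0.0402), and without KO replicate 1, its highest library, 0.35 (FDR = 0.0854).

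Rab8a, of delivery from the Golgi to the plasma membrane, came close to the threshold, with 154 ± 6.67 CPM in WT and 184 ± 7.21 CPM in KO (0.26, SE 0.08, FDR = 0.0597). DESeq2 called it (FDR = 0.0302). Rab11b had 86.9 ± 1.39 and 99.5 ± 7.60 CPM (FDR = 0.153), again with no overlap. Rab4a, a Rab of fast recycling, showed 2.83, 3.77 and 8.96 CPM in WT and 7.72, 14.8 and 10.5 CPM in KO replicates. WT replicate 3 lay among the KO libraries, and the log2 fold change was 1.08 (SE 0.45, FDR = 0.139), or 1.72 (FDR = 0.0395) without WT replicate 3. Rab10, of insertion of vesicles into the plasma membrane, and Rab8b, a relative of Rab8a, had overlapping groups, with log2 fold changes of 0.08 (SE 0.10) and -0.18 (SE 0.14).

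Of the 5 tested Rabs of late endosomes and lysosome-related organelles, none was called by the QLF test and the groups overlapped in all 5. Rab7, the main Rab of late endosomes, averaged 119 ± 1.52 CPM in WT and 131 ± 12.6 CPM in KO (0.14, SE 0.09), and KO replicate 1 was the highest library. Of the 5 tested Rabs of regulated exocytosis, 1 rose (20%, beside 11.6% of all tested genes). All 5 were positive and the median was 0.38. Rab27a, which docks secretory and lytic granules at the plasma membrane (chr9:73044854-73097629), measured 136.3, 147.4 and 122.2 CPM in WT and 163.2, 172.7 and 191.5 CPM in KO replicates. Its log2 fold change was 0.38 (SE 0.10, FDR = 0.044). KO replicate 1 was its lowest KO library. The call held in 6 of 16 settings but in just 1 of the 6 that leave out 1 library. That was the fit without KO replicate 1 (0.41, FDR = 0.0412). Rab37, a Rab of secretory granules, showed 223.2, 160.6 and 196.9 CPM in WT and 248.0, 299.0 and 255.2 CPM in KO replicates. The groups did not overlap and the gene missed the threshold (0.47, SE 0.14, FDR = 0.0567), while DESeq2 called it (FDR = 0.0128). Rab3a, known for synaptic vesicles, averaged 6.00 ± 0.466 CPM in WT and 7.78 ± 0.696 CPM in KO without overlap (FDR = 0.172). Of the 3 tested Rabs with cilium, ubiquitin ligase adaptor and other roles, none was called. Rab28, known from the cilium, had 16.7 ± 1.604 and 22.5 ± 3.47 CPM without overlap (FDR = 0.0893).

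**Figure D2:**
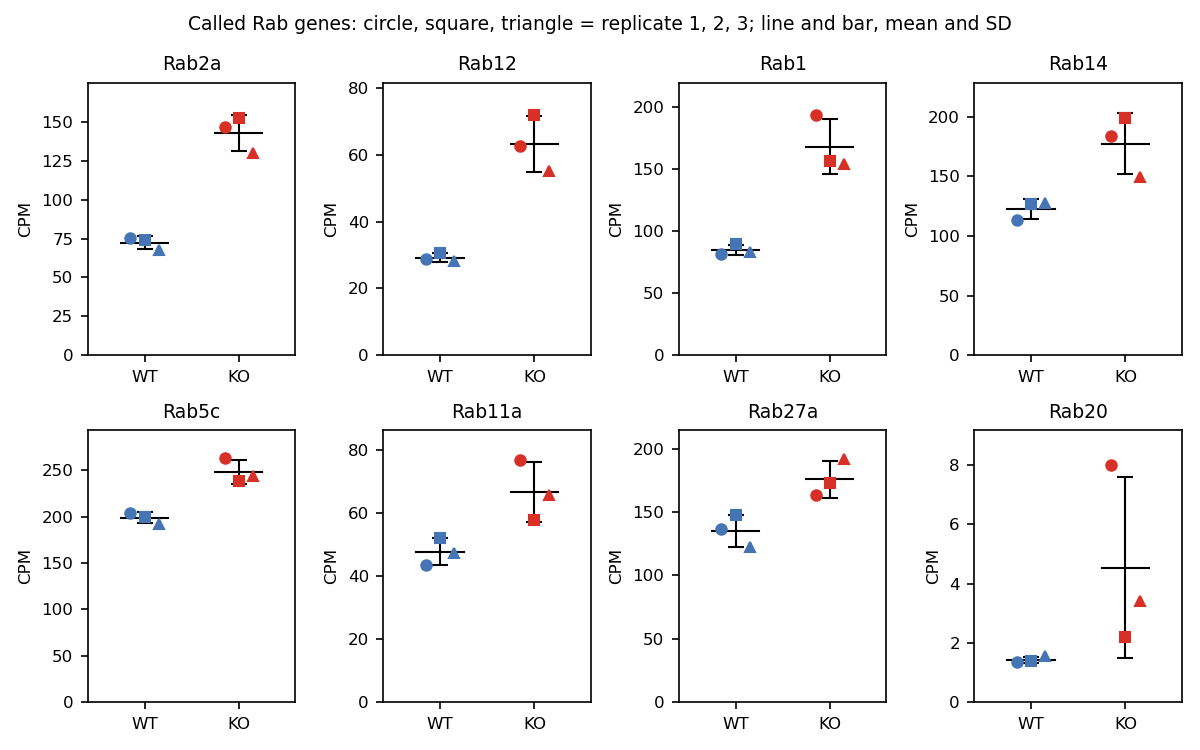
Levels in CPM (y axis, starting at 0) are plotted for the 8 called Rab genes in each WT (blue) and KO (red) library, with the replicate number as the symbol and the mean and SD of 3 libraries as lines. In each panel all 3 KO libraries lie above all 3 WT libraries, most widely for Rab2a, Rab12 and Rab1, and in Rab20 KO replicate 1 at 7.99 CPM carries much of the KO mean.

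Compared per kb of exon, Rab5c was the most abundant Rab in both groups, with 90.6 ± 2.67 CPM per kb in WT and 113 ± 5.89 in KO. In WT libraries Rab8b followed with 60.8 ± 5.65 CPM per kb, Rab10 with 57.5 ± 6.12 and Rab1b with 56.6 ± 3.33, and these 3 neighbours differed by less than the SD of Rab8b. In KO libraries Rab2a stood in place 2 with 67.1 ± 5.42 CPM per kb, having been in place 10 in WT with 33.8 ± 1.95, and Rab1b followed with 65.8 ± 8.33, within the spread of Rab2a. Rab12 went from place 26 (9.63 ± 0.453 CPM per kb) to place 17 (20.9 ± 2.75). Exon lengths were merged over all annotated transcripts and understate the level of genes with long rare exons.

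Close relatives in the family were compared by their ratio. The ratio of 2 genes within a library does not depend on how libraries are scaled, and the difference between KO and WT in the log2 of that ratio was compared for 13 pairs of related genes. With 3 libraries per group an exact two-sided permutation test cannot give a p below 0.1, so no pair could reach 0.05. In 4 of 13 pairs the ratios of KO and WT libraries did not overlap (exact permutation p = 0.1 each, adjusted p = 0.325 over 13 pairs), and without KO replicate 2 in 7. No share over other pairs of genes was computed, so this count has no background to be read against.

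Rab2a over Rab2b had the widest change. The log2 ratio was 1.75, 1.99 and 1.75 in WT and 3.08, 3.62 and 2.95 in KO replicates, a difference of 1.39 (SE 0.22). For Rab1 over Rab1b, 2 genes that serve the same step, the log2 ratio was -0.75, -0.47 and -0.58 in WT and 0.23, 0.28 and -0.01 in KO replicates, a difference of 0.77 (SE 0.12). Thus counts of Rab1b exceeded those of Rab1 in every WT library and in just 1 KO library, by little. Rab1b itself averaged 129 ± 7.56 CPM in WT and 150 ± 18.9 CPM in KO and was not called (0.22, SE 0.11, FDR = 0.21). Rab8a over Rab8b differed by 0.45 (SE 0.19) and Rab5b over Rab5c by -0.32 (SE 0.09). Of the pairs that overlapped, Rab4a over Rab4b had the largest difference (1.33, SE 0.61, exact permutation p = 0.2), and there WT replicate 3 was above the lowest KO library. Rab11a over Rab11b differed by 0.28 (SE 0.19, exact permutation p = 0.2), with KO replicate 1 far above the other two. Of the 51-base stretches of Rab4b, 57.8% also occur in another annotated gene, so its counts are uncertain. For the 8 called genes this share was 4.3% or less.

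**Figure D3:**
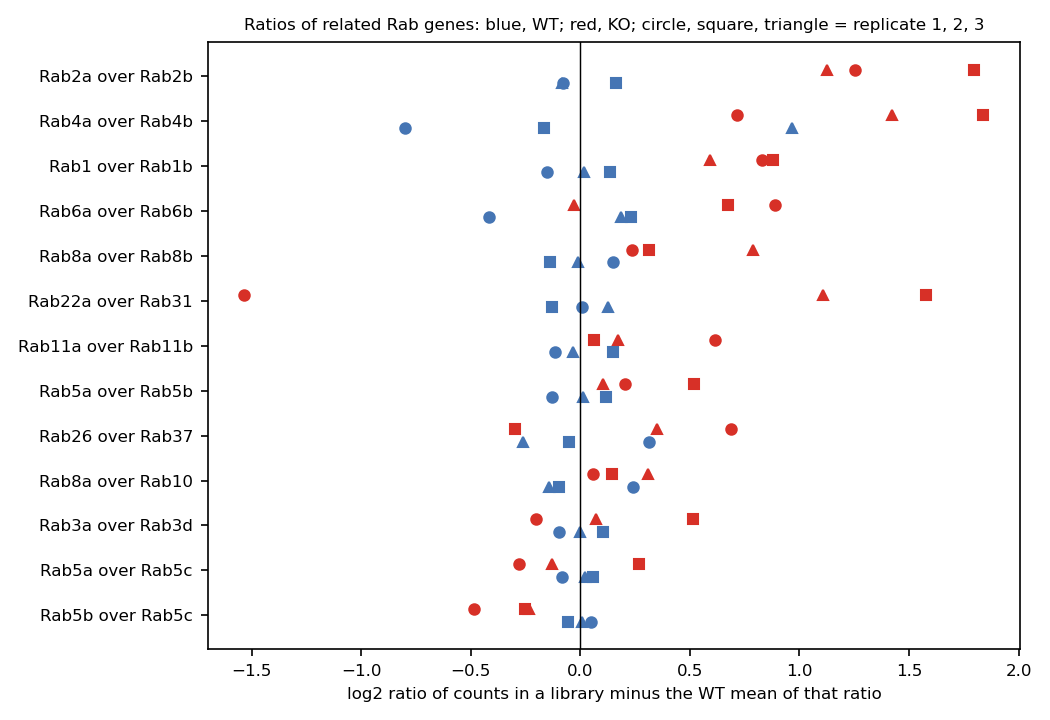
For 13 pairs of related Rab genes (y axis), the log2 ratio of counts in each library is plotted minus the WT mean of that ratio (x axis), with WT in blue, KO in red and the replicate number as the symbol. Red points lie wholly to the right of blue points for Rab2a over Rab2b, Rab1 over Rab1b and Rab8a over Rab8b and wholly to the left for Rab5b over Rab5c, while Rab22a over Rab31 in KO spreads to both sides.

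Several Rab genes were high in KO replicate 1 alone, and of these Rab31 and Rab32 were chosen after their values were seen. Rab32, a Rab of lysosome-related organelles such as melanosomes, measured 6.04, 5.74 and 5.98 CPM in WT and 24.98, 2.35 and 2.40 CPM in KO replicates. With all libraries its log2 fold change was 0.76 (SE 0.86, FDR = 0.576), and without KO replicate 1 it was called lower at -1.33 (FDR = 0.00673). Rab31, of transport between Golgi and endosomes, showed 7.21, 7.54 and 6.53 CPM in WT and 22.5, 3.18 and 3.70 CPM in KO replicates, with 0.47 (SE 0.70, FDR = 0.674) over all libraries and -1.06 (FDR = 0.0151) without KO replicate 1. So in both genes KO replicates 2 and 3 lay below every WT library and KO replicate 1 far above. Rab43 showed 111.3, 102.8 and 108.9 CPM in WT and 190.9, 116.9 and 117.8 CPM in KO replicates, with 0.40 (FDR = 0.188) over all libraries and 0.11 (FDR = 0.443) without KO replicate 1. Of the exon bases of Rab43, 75.4% overlap another annotated gene.

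Of the 17 Rab genes under the filter, 11 were highest in KO replicate 1. Among these, Rab17, Rab40b and Rab42 had just 1, 2 and 3 counts in that library. No share over all genes under the filter was computed, so the count of 11 has no background to be read against. The summed level of the 17 was 1.42, 0.861 and 1.604 CPM in WT and 18.9, 3.41 and 4.04 CPM in KO replicates. The 6 that exceeded 1 CPM in any library did so in KO replicate 1, and Rab44 also in KO replicate 3. Rab7b, of late endosomes, had 0, 1 and 1 counts in WT and 113, 3 and 0 counts in KO replicates. Rab39, known from phagosomes, had 6, 1 and 4 counts in WT and 56, 5 and 2 in KO replicates. Rab13, known from tight junctions, had 2, 3 and 3 counts in WT and 19, 1 and 0 in KO replicates, and Rab30, of the Golgi, had 0 counts in all WT libraries and 26, 1 and 0 in KO replicates. Rab38, the relative of Rab32, and Rab44, an unusually large Rab, were above the floor of 3 counts in at least 2 KO libraries each. Rab38 had 28, 4 and 8 counts and Rab44 58, 3 and 32 counts in KO replicates, against no count of Rab38 and 1 of Rab44 in the 3 WT libraries together. None of these genes was tested.

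The same library held the markers of other cells. All 12 monocyte and macrophage genes, all 6 dendritic cell genes (154 CPM in KO replicate 1 against 2.99 to 6.71 CPM elsewhere), all 9 B cell genes (250 against 8.25 to 22.0 CPM) and 11 of 12 neutrophil genes (973 against 4.37 to 49.1 CPM) were highest in KO replicate 1. The monocyte and macrophage, neutrophil and CD8 and NK cell sums were also higher in KO replicates 2 and 3 than in every WT library. Neutrophil genes had 16.8 and 49.1 CPM there against 4.37 to 5.91 CPM, so leaving out KO replicate 1 does not remove that difference. Much of these sums lay in single genes, with Vcam1 at 35.1 and 11.2 CPM, Mpo at 6.21 and 32.2 CPM and Eomes at 42.0 and 29.8 CPM. Other genes of the lists went the other way in KO replicates 2 and 3. Cd68 (4.09 and 3.08 against 4.31 to 6.97 CPM) and Klrb1c (0.303 and 0.821 against 2.38 to 3.94 CPM) were lower than in every WT library. Of the 8 CD8 and NK cell genes, 6 were highest in KO replicate 1 (104 CPM, against 61.4 and 52.5 in the other two KO libraries and 26.8 to 29.9 in WT). The 8 erythroid genes summed to 37.1 against 0.940 to 4.77 CPM, with the 4 globin genes of the list, Hba-a1, Hba-a2, Hbb-bs and Hbb-bt, at 0 in every library. The 6 platelet and megakaryocyte genes summed to 81.9 CPM in KO replicate 1 and 80.9 to 140 CPM elsewhere. Most of this sum was Itgb3, at 74.3 CPM in KO replicate 1 and 117 to 136 CPM in WT. Ppbp was at most 0.041 CPM in WT and 1.28, 0.227 and 1.98 CPM in KO replicates 1, 2 and 3. The part of the markers of other cells in the Rab values of KO replicate 1 was not tested. Of the called Rab genes, Rab2a, Rab12 and Rab14 were highest in KO replicate 2 and Rab27a in KO replicate 3. Rab1, Rab5c, Rab11a and Rab20 were highest in KO replicate 1. In the QLF fit without KO replicate 1, Rab2a, Rab12, Rab14, Rab27a and Rab1 kept their calls. Rab5c (FDR = 0.0885), Rab11a (FDR = 0.0854) and Rab20 (FDR = 0.0629) lost theirs.

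**Figure D4:**
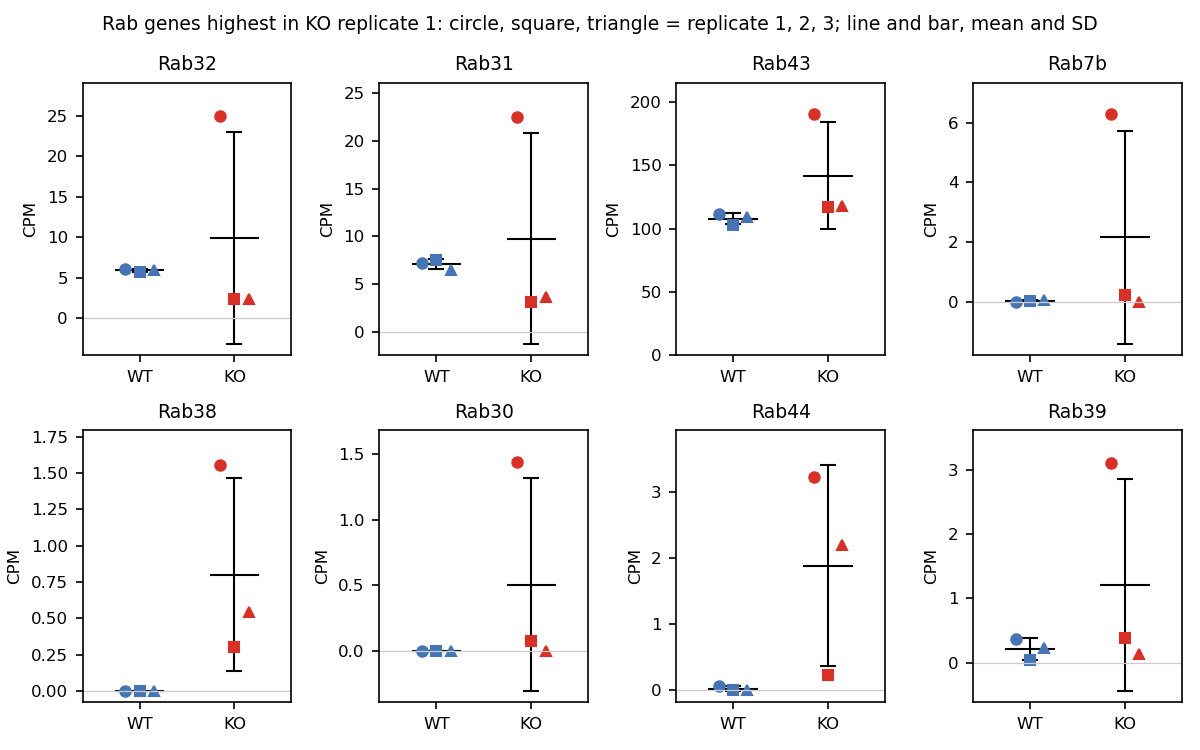
Levels in CPM (y axis) of 8 Rab genes that were highest in KO replicate 1 are plotted in each WT (blue) and KO (red) library, with the replicate number as the symbol and the mean and SD of 3 libraries as lines. The red circle of KO replicate 1 is the top point in every panel, and in Rab32 and Rab31 the other two KO libraries lie below all WT libraries. The lower SD bar falls below 0 where 1 library carries the mean.

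The seed matches printed above were counted in the longest annotated 3′ UTR of all 42 tested Rab genes and of the 11107 tested genes that had one, on the transcript strand. Bases 2 to 8 of miR-142a-3p (ACACTAC) had a match in 8 Rab genes (19.0%) and in 777 of all genes (7.0%). The 8 were Rab2a and Rab23 with 2 matches each, and Rab12, Rab14, Rab40c, Rab11b, Rab18 and Rab3a. Of these 8, Rab2a, Rab12 and Rab14 rose, and all 8 had a positive log2 fold change, with a median of 0.35. Over all genes with this match, 190 were called higher (24.5%) and 40 lower (5.15%), 65.9% were positive and the median was 0.17. The median length of the 3′ UTR was 1950 bases in the tested Rab genes against 1185 in all tested genes. Among genes with ACACTAC it was 1789.5 bases in the 8 Rab genes and 2524 bases in all 777. The part of length in these shares was not tested. A match is a description of letters and not of a binding site.

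Of the 5 Rab genes that hold ACACTAC and were not called, 4 are printed, and Rab18 is given by its values alone. They show the same letters in other surroundings, read in the same way from the last exon of each.
Rab40c: cgtgcacaccatcaACACTACa
Rab11b: agggactggagaaaACACTACa
Rab3a: cctagaagttatgaACACTACa
Rab23, first match: cccaagtgtgccaaACACTACc
Rab23, second match: taccgctaatttttACACTACt
Rab40c (chr17:25882190-25882196) and Rab11b (chr17:33744522-33744528) are on the minus strand, and Rab3a (chr8:70758570-70758576) and Rab23 (chr1:33740056-33740062 and chr1:33740074-33740080) on the plus strand. The first 3 have the A on the 3′ side that Rab2a, Rab12 and Rab14 also have, while Rab23 at both matches and Rab18 have another base there. Rab40c averaged 30.0 ± 0.688 CPM in WT and 33.5 ± 3.34 CPM in KO (0.16, SE 0.11, FDR = 0.335), Rab23 15.9 ± 2.52 and 17.9 ± 1.36 CPM (0.17, SE 0.15, FDR = 0.484), and Rab18 62.9 ± 11.9 and 78.8 ± 3.43 CPM (0.32, SE 0.14, FDR = 0.14). The match was thus present in Rab genes with rises close to 2-fold and in Rab genes with no call.

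Bases 3 to 9 of miR-142a-3p (AACACTA), which overlap ACACTAC in 6 letters, had a match in 11 Rab genes (26.2%) and in 10.2% of all genes. Either 3p match was present in 12 Rab genes (28.6%, against 14% of all genes), of which 3 rose (25%, against 21.7% called higher over all genes with either match) and all 12 were positive (against 67.1%). Bases 2 to 8 of miR-142a-5p (ACTTTAT) had a match in 8 Rab genes (19.0%) and in 15.9% of all genes. Of those 8, Rab1 rose, Rab37, Rab7 and Rab10 were positive, and Rab21, Rab33b, Rab8b and Rab6b were negative, with a median of -0.05. Over all genes with this match, 13.2% were called higher, 50.3% were positive and the median was 0.01. None of these letters was found in 22 Rab genes, which included the called Rab5c, Rab20, Rab11a and Rab27a, and their median was 0.35. In all genes without a match, 10.2% were called higher and the median was 0.00. Counting the union of all annotated 3′ UTRs gave the same numbers of Rab genes.

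**Figure D5:**
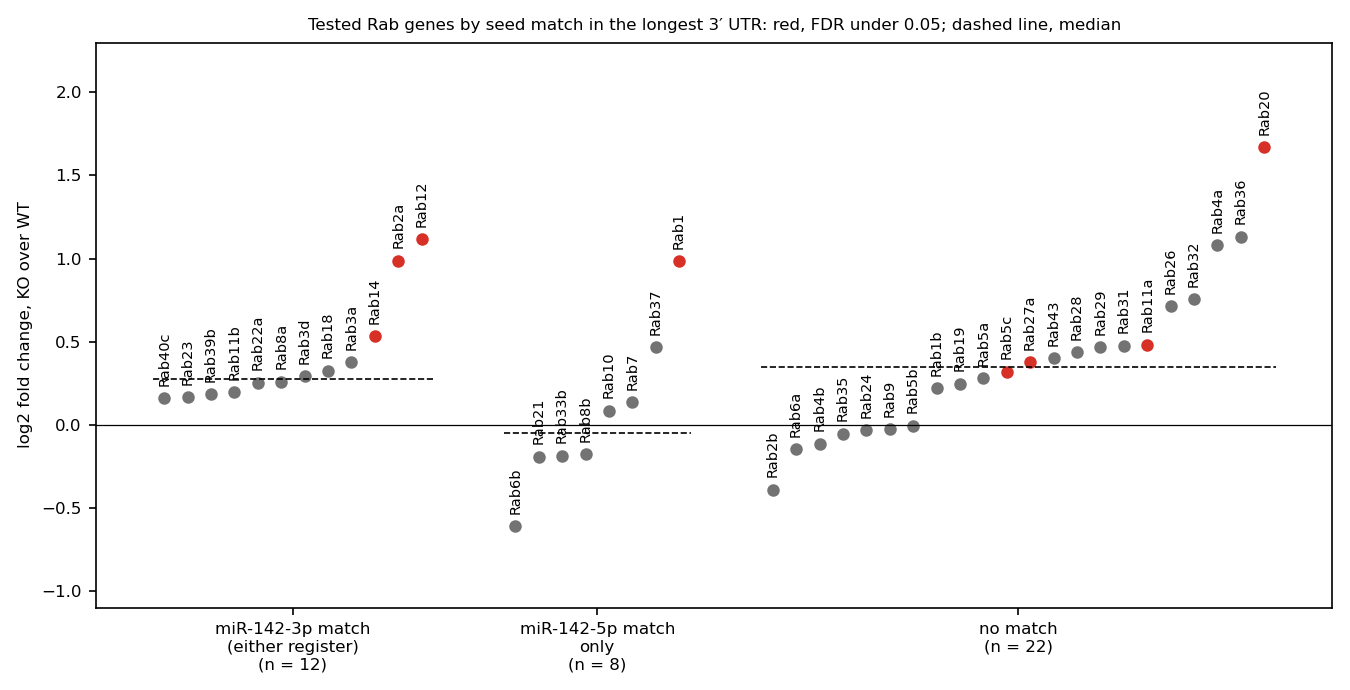
The log2 fold change of KO over WT (y axis) is plotted for the 42 tested Rab genes, sorted within 3 groups by seed match in the longest 3′ UTR (x axis), with called genes in red and dashed lines for medians. All 12 genes with a match to miR-142a-3p lie above 0, genes with a match to miR-142a-5p lie on both sides, and 4 of the 8 called genes have no match.

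The proteins that load, switch and read Rabs were described from a list of 148 genes, of which 133 were tested. They moved in both directions. Of the 133, 20 rose and 14 fell (25.6% called, beside 18.8% of all tested genes), and the median log2 fold change was -0.01, against 0.27 for the Rab genes. Without WT replicate 1, 2 or 3 the 34 calls became 16, 9 and 10, and without KO replicate 3 they became 21. Calls over all tested genes fell in the same fits, from 1350 higher and 847 lower. They became 666 and 356 without WT replicate 1, 483 and 208 without WT replicate 2 and 555 and 235 without WT replicate 3. Without KO replicate 3 they became 874 and 637. None of the 8 genes of prenylation and membrane cycling, among them the escort proteins Chm and Chml, was called at an FDR under 0.05, and none had an unadjusted p under 0.05. Exchange factors had 7 of 44 higher and 6 lower, GTPase-activating proteins 6 of 38 higher and 4 lower, effectors 6 of 38 higher and 4 lower, and Rab-like GTPases 1 of 5 higher, Rabl6 (0.36, FDR = 0.0403).

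The 5 machinery genes that rose with the smallest p-values were Evi5, Dennd4a, Sytl3, Sbf2 and Fyco1. Evi5, a GTPase-activating protein linked to Rab11, showed 5.67, 4.55 and 4.48 CPM in WT and 18.9, 19.5 and 18.3 CPM in KO replicates, with the smallest p of the list (1.95, SE 0.15, FDR = 0.00088). Dennd4a, an exchange factor for Rab10, went from 70.0 ± 4.93 to 120 ± 10.8 CPM (0.78, SE 0.10, FDR = 0.0037). Sytl3, a synaptotagmin-like effector of Rab27, went from 1.49 ± 0.234 to 5.18 ± 1.76 CPM (1.80, SE 0.30, FDR = 0.0093). Sbf2, an exchange factor for Rab21 and Rab28, rose by 0.83 on the log2 scale (FDR = 0.0102), and Fyco1, a Rab7 effector that joins late endosomes to kinesin, by 0.46 (FDR = 0.0122).

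The 5 that fell with the smallest p-values were Rin3, Madd, Exph5, Dennd2d and Inpp5b. Rin3, an exchange factor for Rab5 and Rab31, went from 239 ± 2.22 to 153 ± 2.09 CPM (-0.64, SE 0.07, FDR = 0.0023). Madd, an exchange factor for Rab3 and Rab27a, went from 345 ± 16.6 to 219 ± 7.55 CPM (-0.65, SE 0.08, FDR = 0.0032). Exph5, an effector of Rab27, showed 4.13, 5.04 and 5.75 CPM in WT and 0.50, 0.53 and 1.16 CPM in KO replicates (-2.76, SE 0.37, FDR = 0.0041). Dennd2d, an exchange factor for Rab9, and Inpp5b, an inositol phosphatase that binds several Rabs, fell by 0.74 (FDR = 0.0062) and 0.57 (FDR = 0.0084) on the log2 scale. All 10 of these genes also passed without KO replicate 1.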

How the data were processed

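The samples were 6 RNA-seq libraries of sorted splenic Treg cells, 3 WT and 3 KO, each from 1 mouse. The authors aligned 51-base single-end reads to mm10 with HISAT and counted them per gene with featureCounts without strand, and they deposited raw counts with no normalization. Versions of these tools are not given in the sources used here. All 6 columns of the matrix were used. The depth of the libraries sets the floors given with the results.

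From these counts, genes above 1 CPM in 3 libraries or more entered the test in R 4.3.3 with edgeR 4.0.16 (TMM, QLF test, no covariate, Benjamini-Hochberg over all 11658 tested genes, FDR under 0.05), after a test of the steps on simulated data. The biological coefficient of variation was 0.212. CPM values use TMM-scaled library sizes. Ratios of relatives used counts plus 0.5 and exact permutation tests (scipy 1.17.1). Alternatives were RLE, upper quartile and no scaling factors, DESeq2 1.42.0 (Wald test), robust QLF, all 3 edgeR tests together, filterByExpr and no filter, an FDR of 0.01, a replicate block and leaving out each library. Symbols were matched to GENCODE vM21 (GRCm38, the build mm10 names) by symbol for 23334 genes and by synonym for 649. All 59 Rab genes matched, 58 by symbol and 1, Rab1, by synonym.

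The members and the lists of roles, relatives, machinery and markers were chosen with earlier results of these data known. Named were all called members, tested members whose groups do not overlap, the 5 most abundant per kb, those with a log2 fold change of at least 1 in size, relatives of called members, members under the filter with any library above 1 CPM, and the 5 machinery genes with the smallest p in each direction. Other Rab genes named, and Rabl6, were chosen after their values were seen. The values of some single genes of these lists are left out of the text.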

Additional observations from a re-analysis of the deposited data

How the results depend on the processing

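Rab2a, Rab12 and Rab1 passed the threshold under all 16 alternatives, and the other 5 called Rab genes under some of them: Rab14 under 12, Rab11a and Rab27a under 6 each, Rab5c under 5 and Rab20 under 4. The 8 called Rab genes, all higher, became 4, all higher, with library size alone and with the upper quartile, and 3, all higher, at an FDR of 0.01. With library size alone the median log2 fold change of all genes was -0.06 and that of the Rab genes 0.19. Leaving out 1 library gave 3 to 10 called, 3 to 10 higher and 0 to 2 lower. The 3 came without WT replicate 1, and 4 higher came without WT replicate 2, WT replicate 3 or KO replicate 3. DESeq2 called 1 lower. Of the alternatives that keep all libraries and use no replicate block, the others gave 6 (no filter) to 11 (DESeq2) called Rab genes. Machinery genes went from 34 called (20 higher, 14 lower) to 8 (3 and 5) at an FDR of 0.01, and to 13 higher without a filter. With 1 library left out, 9 to 32 machinery genes were called, 4 to 18 higher and 5 to 15 lower, the 9 without WT replicate 2. Over all tested genes, 490 were higher and 196 lower at an FDR of 0.01. With 1 library left out, 483 to 1403 of all tested genes were higher and 208 to 937 lower. Pairs without overlap numbered 4, or 5 to 7 with 1 library left out, the 7 without KO replicate 2. Rab5b (-0.01) ranged from -0.0519 to 0.0174 with 1 library left out, above 0 without WT replicate 1 (0.0121) and without KO replicate 1, and Rab10 (0.08) from -0.0289 without WT replicate 1 to 0.134. Rab31 ranged from -1.06 without KO replicate 1 to 0.90 and Rab32 from -1.33 without KO replicate 1 to 1.23, and both were also negative with the replicate block (-0.13 and -0.17). Among the values of all named Rab genes under alternatives, 417 kept their direction and side of the threshold, 47 lost and 9 gained a call, and 7 changed sign. For the named machinery genes 160 kept both and 16 lost a call, 12 of these for Rabl6. The causes of these changes were not tested.

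The replicate numbers pair no animals by the labels, and deviations of same-numbered libraries correlated at 0.0731, -0.0124 and -0.188. With the number as a replicate block, 4 Rab genes were called, all higher (Rab2a, Rab12, Rab1 and Rab14), and 13 machinery genes were called higher. With 3 libraries per group, an exact permutation test of a single gene cannot fall below 0.1, and a level below 0.227 CPM is under the floor of 3 counts in the shallowest library.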
